A study of Rattus norvegicus with 30 samples.

Results

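The comparison described here was that of SAP_6h with Sham_6h, the lung transcriptome 6 h after the start of severe acute pancreatitis (SAP) set against that of sham-operated rats. Its members were chosen by their labels alone and were 6 of the 30 RNA-seq libraries, 3 rats in each group and 1 library per rat. All animals were male Sprague Dawley rats, 8 weeks old at purchase, fasted for 12 h and anaesthetised with pentobarbital sodium. In the SAP group, 5.0% sodium taurocholate (0.1 mL per 100 g) was infused retrograde into the biliopancreatic duct, whereas in the Sham group the pancreas was only turned slightly by surgery. A further group, Con_6h (3 rats), received sterile saline in the duct. Sham, Con and SAP rats all received intravenous saline and 0.5% carboxymethylcellulose sodium by stomach at 2 h. The Dex_6h and Emo_6h rats (3 each) had taurocholate as well, followed by dexamethasone (DEX, 10 mg/kg, intravenous) or emodin by stomach, whose dose is given as 40 mg/kg in the protocol and as 10 mg/kg in the sample descriptions. The Sham_24h and SAP_24h rats (3 each) had the same operations and were sampled at 24 h, after a further dose of saline and vehicle at 12 h that the 6 h rats did not have. The vessels of each lung were irrigated with saline through the pulmonary artery before harvest, so the tissue is whole lung with part of its blood removed.

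Acute pancreatitis injures the lung from a distance: enzymes, cytokines and activated leukocytes reach it through the blood and meet the pulmonary capillary endothelium first. That endothelium sets vessel tone and permeability through signals such as VEGF, nitric oxide, endothelin, apelin and adrenomedullin. The alveolar epithelium behind it clears fluid with sodium channels and the sodium pump and makes surfactant. Neutrophil chemokines, endothelial adhesion molecules and acute-phase proteins are the genes most often followed in such injury.

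The 6 libraries held between 16813949 reads (SAP replicate 3) and 34692306 reads (SAP replicate 2) on annotated genes, and the 3 Sham libraries 28608602, 25512139 and 23897363. Pairs of libraries within the Sham, Con and SAP groups differed by 39.8 to 117 times the sampling variance per gene, so no library was a copy of another. Lung identity was clear from the surfactant gene Sftpc, at 19221 to 29931 FPKM in Sham and 22105 to 26726 in SAP rats, and from the club cell gene Scgb1a1, at 16320 to 29380 and 27324 to 28413. Heart muscle genes summed to 266.5 FPKM in Sham replicate 2 and to 218.6 and 211.6 in SAP replicates 2 and 3, against 8.34 to 19.5 in the other 3 libraries, and the part of such tissue in the results was not tested. The study's mapping summary lists a lower share of uniquely mapped reads in every SAP library than in every Sham library of this time point, and this difference in the reads and the taurocholate cannot be told apart here. As each sample is bulk tissue, fewer cells of a type and less RNA per cell cannot be told apart either.

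Few genes passed the test at 6 h. Of 15934 genes tested, 30 were called higher in SAP rats (0.188% of the genes tested) and 5 lower (0.0314%), where called means an adjusted p under 0.05 in edgeR's quasi-likelihood test and a change of at least 2-fold. Counts of genes or list members without overlap between groups use CPM (counts scaled to library size with TMM factors), and overlap stated beside FPKM values of single genes refers to FPKM. The groups of 3 did not overlap for any of these 35 genes, which is no added support, as the same libraries chose them. Over all genes 7.66% lay wholly above and 7.86% wholly below the Sham range. Without the adjustment, 1156 genes (7.25%) were higher and 924 (5.8%) lower at p under 0.05, and the median log2 fold change of all genes was -0.02. Counts of list members below are to be read against these shares of all genes. Of the 35 genes, 32 code for proteins, 2 are lincRNAs and 1 is a pseudogene. The number of calls rested on the libraries used: it was 17, 9 and 4 without Sham replicates 1, 2 and 3, and 60, 20 and 8 without SAP replicates 1, 2 and 3. Wnt4 and the lincRNA AABR07051555.1 passed in all 6 of these fits, Igsf8 and Etnk1 in 5, and Slc25a15, F2rl3 and Nos3 in 4. Among the others, 6 genes (Tmem2, Vgll3, Tbx2, Kcng4, Mfsd2a and Ppp1r3g) passed in none of the 6 although they passed with all libraries. No gene was called when the spread was estimated from the 6 libraries alone (1644 genes at unadjusted p under 0.05), and DESeq2 called 191, all 35 included.

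**Figure D1:**
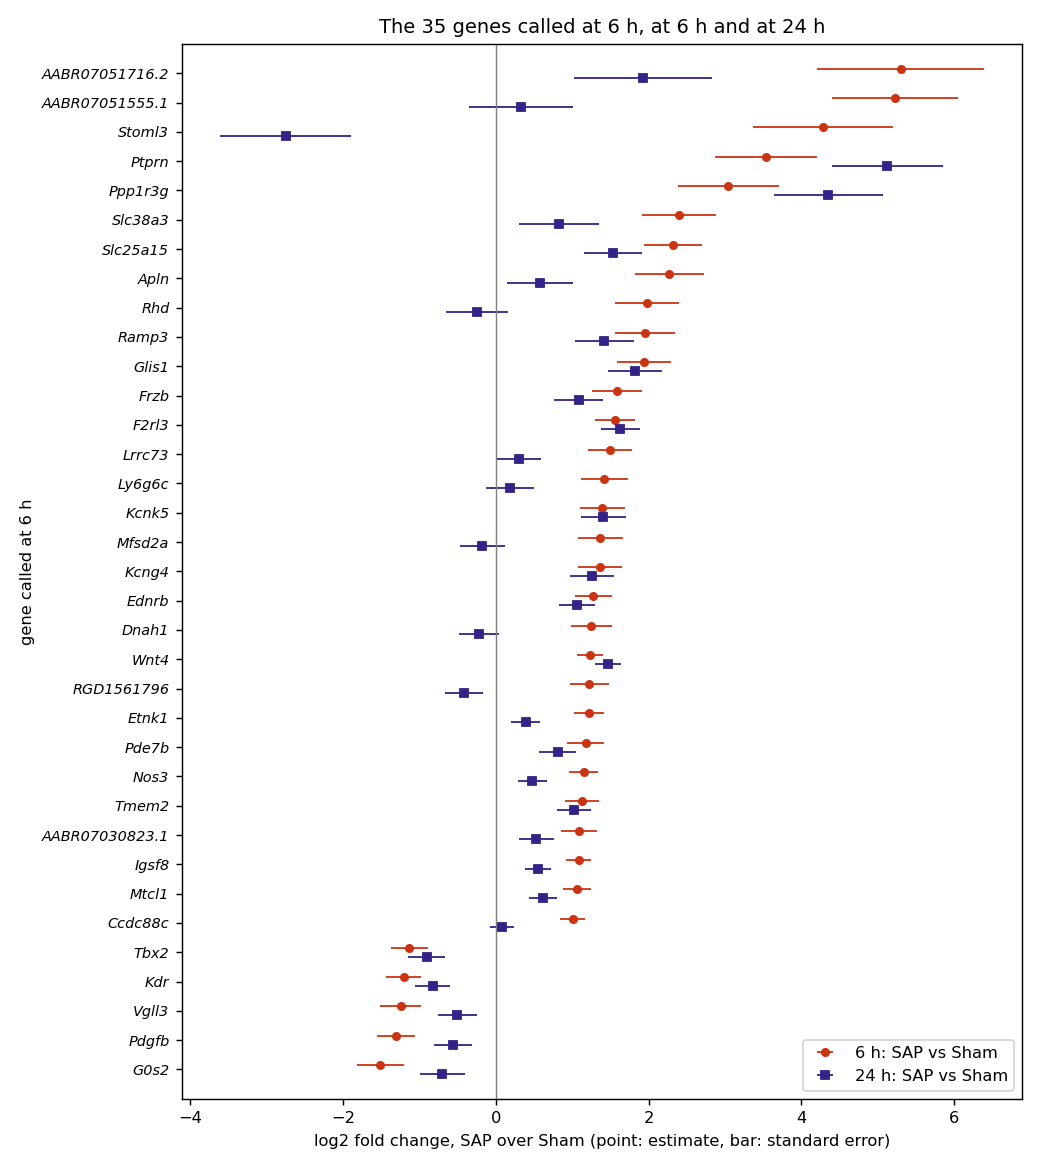
Log2 fold change of SAP over Sham (x axis) for the 35 genes called at 6 h (y axis, 1 line per gene), at 6 h and at 24 h, where points are estimates and bars standard errors. The genes Kdr, Pdgfb, Tbx2, G0s2 and Vgll3 lie below 0 at 6 h, and Stoml3 lies above 0 at 6 h and below it at 24 h.

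Of the genes called lower, Kdr, Pdgfb and Tbx2 were grouped as vascular after their values were seen. Among them only Kdr, the main signalling receptor for VEGF on endothelium, was in a vascular list. Kdr stood at 47.6, 39.3 and 29.0 FPKM in the 3 Sham rats and at 15, 18.0 and 15.5 in the 3 SAP rats. All SAP rats lay below all Sham rats, and the fall was 2.31-fold (log2 fold change -1.21 ± 0.23 SE, adjusted p = 0.0246). Pdgfb, the growth factor with which endothelium recruits pericytes, was at 50.9, 38.7 and 47.9 FPKM in Sham and 16.8, 14.9 and 22.2 in SAP rats. Its highest SAP value was well under its lowest Sham value, a 2.48-fold fall (-1.31 ± 0.25, adjusted p = 0.0245). Tbx2, a T-box transcription factor of lung mesenchyme and vessels, was at 78.9, 62.6 and 83.6 FPKM in Sham and 35.2, 28.0 and 36.1 in SAP rats. The groups were again apart, with a 2.19-fold fall (-1.13 ± 0.24, adjusted p = 0.0428). In the saline-infused Con rats these 3 genes were above every SAP rat, as Kdr was at 46.4, 34.5 and 70.6 FPKM, Pdgfb at 51.0, 36.3 and 80.1 and Tbx2 at 80.2, 55.7 and 133. Leaving out single libraries, Pdgfb and Kdr passed the test in 2 of 6 fits and Tbx2 in none.

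The promoter of Pdgfb is shown because it held 3 matches to the core letters of the C/EBP factors (TTNNGNAA on either strand), which respond to inflammatory signals. The bases upstream of its start site, from RefSeq on GRCr8 (chr7:113438344-113438493, minus strand, matches in capitals, starting 135, 62 and 50 bases before the start), read:
Pdgfb: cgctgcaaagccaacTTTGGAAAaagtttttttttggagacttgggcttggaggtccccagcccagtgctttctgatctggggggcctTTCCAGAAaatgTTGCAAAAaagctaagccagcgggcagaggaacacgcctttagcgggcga
Among the 250 bases upstream of the start, 37.2% of 33469 promoter entries held such a match, as did 6 of the 25 called genes with an entry (Ccdc88c, Slc25a15, Pdgfb, Frzb, Kcng4 and Ppp1r3g). A gene was counted if any of its entries matched, so counts of genes and shares of entries are unlike measures, here and below. The matching letters are a description of the sequence and no binding was measured.

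Called genes with a known part in vessel tone or receptor signalling, grouped after their values were seen, included Nos3, Apln, Ednrb, Ramp3 and F2rl3, of which Nos3 alone was in a vascular list. Nos3, the endothelial nitric oxide synthase, was at 4.89, 5.65 and 4.35 FPKM in Sham and 9.96, 8.27 and 13.7 in SAP rats. Every SAP rat was above every Sham rat, a 2.22-fold rise (1.15 ± 0.19, adjusted p = 0.00773). Apln, which encodes the vasodilator peptide apelin, was at 22.7, 12.2 and 9.64 FPKM in Sham and 74.2, 48.0 and 84.3 in SAP rats. The lowest SAP rat exceeded the highest Sham rat more than the Sham rats differed from each other, and the rise was 4.82-fold (2.27 ± 0.45, adjusted p = 0.034). Ednrb, the endothelin B receptor, was at 29.3, 24.1 and 14.1 against 45.1, 48.8 and 64.4 FPKM and rose 2.42-fold (1.28 ± 0.24, adjusted p = 0.0234). Ramp3, a subunit that turns the calcitonin receptor-like receptor into an adrenomedullin receptor, was at 16.7, 21.5 and 13 against 85.8, 38.4 and 65.7 FPKM, a 3.88-fold rise (1.95 ± 0.39, adjusted p = 0.0361). For both receptors the groups were apart, and SAP replicate 2 had the lowest Ramp3 level of its group. F2rl3, the thrombin receptor PAR4 of platelets and some vessels, was low but even within groups, at 0.48, 0.75 and 0.68 FPKM in Sham and 1.76, 1.81 and 1.90 in SAP rats (2.95-fold, 1.56 ± 0.26, adjusted p = 0.00773). Adm, the gene of adrenomedullin itself, was at 9.24, 6.49 and 3.88 against 5.61, 7.32 and 4.20 FPKM, with overlapping groups (adjusted p = 0.923), and Edn1, that of endothelin-1, was at 41.6, 36.2 and 13.8 against 22.3, 22.6 and 11.8 (adjusted p = 0.625). The rises of these receptors thus stood beside ligand genes that did not pass the test. In fits without single libraries, Nos3 and F2rl3 passed in 4 of 6, Apln and Ednrb in 3 and Ramp3 in 1.

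**Figure D2:**
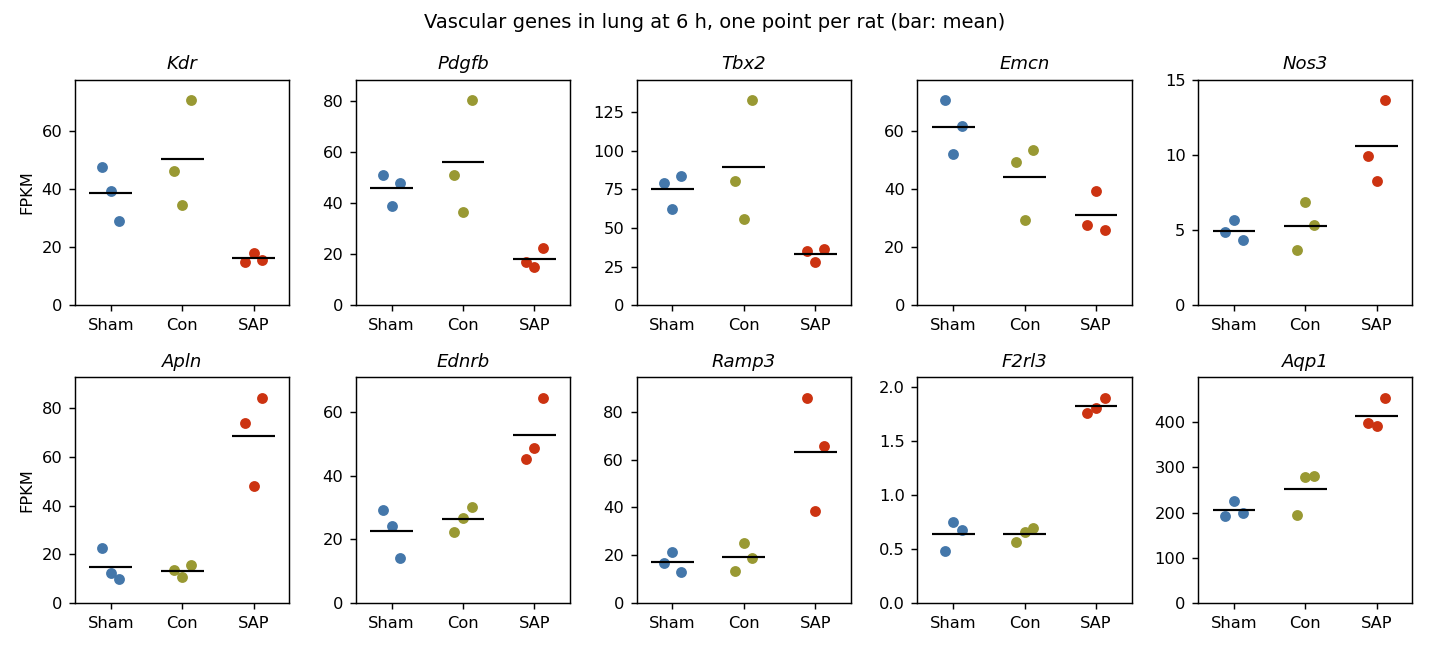
FPKM (y axes, starting at 0) of 10 vascular genes in the Sham, Con and SAP groups at 6 h, 1 point per rat with a bar at the mean. Kdr, Pdgfb and Tbx2 are lower and Nos3, Apln, Ednrb, Ramp3 and F2rl3 higher in all 3 SAP rats than in all 3 Sham rats, while Emcn and Aqp1 show the same separation without passing the adjusted test.

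General endothelial genes moved in no common direction. Of 11 endothelial marker genes tested, 1 was called (Kdr, lower), and at unadjusted p 1 was higher and 2 lower, with a median log2 fold change of -0.09 (0.03 without SAP replicate 3). Cdh5, the endothelial cadherin, was at 145, 144 and 140 FPKM in Sham and 120, 127 and 144 in SAP rats (-0.09 ± 0.18, adjusted p = 0.898), and Tek, the angiopoietin receptor, differed by 0.08 ± 0.17 (adjusted p = 0.9). The values of these pan-endothelial genes overlapped between groups. Emcn, an endothelial surface mucin of capillaries and veins, was at 70.7, 52.3 and 61.9 against 27.6, 39.5 and 25.9 FPKM (-0.95 ± 0.24, adjusted p = 0.0858). Aqp1, the water channel of lung capillaries, was at 192, 226 and 198 against 398, 391 and 454 FPKM (1.06 ± 0.26, adjusted p = 0.0798). Both separated the groups without an overlap and missed the adjusted threshold. Among 12 genes of endothelial activation, 1 was called (Nos3), 3 were higher and 2 lower at unadjusted p, and the median was -0.25 (from -0.61 without SAP replicate 2 to 0.59 without Sham replicate 2). Icam1, the leukocyte adhesion molecule, was at 106, 105 and 135 FPKM in Sham and 56.7, 54.1 and 83.6 in SAP rats (-0.79 ± 0.26, adjusted p = 0.169), and Angpt1, the vessel-stabilising ligand of Tek, was at 2.68, 3.94 and 3.90 against 1.6, 1.57 and 2.01 (-0.98 ± 0.27, adjusted p = 0.118). The selectin genes Sele and Selp were under 10 FPKM in every rat and their groups overlapped. Smooth muscle and pericyte markers were at lower mean levels in all 9 genes (median -0.40, 3 at unadjusted p, none called), with Tagln, a contractile protein gene, at 346, 393 and 476 against 281, 296 and 229 FPKM (-0.55 ± 0.24, adjusted p = 0.328).

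Wnt4 had the smallest adjusted p of all genes. This secreted Wnt ligand of development and repair was at 10.8, 9.73 and 10.4 FPKM in Sham, 11.4, 10.2 and 11.4 in Con and 26.7, 18.2 and 25 in SAP rats. The 6 rats without taurocholate were nearly equal and the 3 SAP rats all stood above them, a 2.35-fold rise over Sham (1.23 ± 0.17, adjusted p = 0.00378). The promoter of Wnt4 is shown as that of the leading gene, with its CG dinucleotides in capitals, since it held 47 of them in 250 bases where the median of all promoter entries was 5. The last 120 bases before the start (RefSeq, GRCr8, chr5:154797330-154797449, plus strand) read:
Wnt4: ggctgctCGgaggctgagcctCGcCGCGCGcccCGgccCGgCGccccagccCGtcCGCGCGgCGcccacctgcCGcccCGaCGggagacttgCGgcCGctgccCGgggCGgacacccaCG
A further 3 called genes, grouped likewise by their known roles, act on Wnt or developmental signals. Frzb, a secreted Wnt antagonist, was at 11.9, 7.11 and 3.97 FPKM in Sham and 22.4, 26.1 and 18.5 in SAP rats, a 3.01-fold rise (1.59 ± 0.33, adjusted p = 0.038). Ccdc88c, a binding partner of the Wnt mediator Dishevelled, was at 2.13, 2.68 and 2.09 against 4.98, 4.08 and 4.28 FPKM (2.01-fold, adjusted p = 0.00661). Glis1, a Krüppel-like zinc finger transcription factor, was at 0.79, 0.36 and 0.54 against 2.31, 1.53 and 2.45 FPKM (3.84-fold, adjusted p = 0.0171). None of these groups overlapped. Vgll3, a cofactor of the TEAD transcription factors, fell from 4.0, 3.02 and 3.89 to 1.26, 1.70 and 1.50 FPKM (2.38-fold, adjusted p = 0.0428).

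Of the 25 called genes with a promoter entry, Vgll3 alone had a promoter match to the AP-1 site (TGANTCA, either strand), which 6.34% of all promoter entries held. The stretch with the match in capitals, 79 bases before the start of the second of its 2 entries (RefSeq, GRCr8, chr11:17090134-17090243, plus strand), read:
Vgll3: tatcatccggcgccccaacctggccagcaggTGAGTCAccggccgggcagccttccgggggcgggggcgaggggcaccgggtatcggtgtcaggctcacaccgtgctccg
None of these 25 genes had, in any entry, the kB site of NF-kB (GGGA and TTCC with 2 bases between, 1.08% of all entries). The same held for the glucocorticoid element (GNACA and TGTNC with 3 bases between, 0.373% of all entries), and both were read on either strand. A STAT site (TTCNNNGAA, 7.67% of all) was found in G0s2 alone of these 25, which is printed below with its values.

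Transport and metabolic genes among the calls were also grouped after their values were seen. Slc25a15, the mitochondrial ornithine carrier of the urea cycle, was at 10.7, 5.55 and 4.24 FPKM in Sham and 52.3, 20.7 and 24.6 in SAP rats. The groups were apart, SAP replicate 1 being the highest, and the rise was 4.99-fold (2.32 ± 0.39, adjusted p = 0.00773). Slc38a3, a glutamine transporter, was at 0.42, 0.14 and 0.21 against 1.48, 1.32 and 1.11 FPKM (5.26-fold, adjusted p = 0.0361). Mfsd2a, a transporter of lysophospholipids with long fatty acids, was at 0.69, 0.82 and 0.89 against 2.09, 1.99 and 1.90 FPKM (2.58-fold, adjusted p = 0.0457). These transporters were low in Sham lung except Slc25a15, and no SAP rat fell within the Sham range. Etnk1, the kinase that starts phosphatidylethanolamine synthesis, was at 7.31, 6.99 and 5.48 against 16.4, 12.6 and 15.4 FPKM (2.33-fold, adjusted p = 0.00682). Ppp1r3g, which directs protein phosphatase 1 to glycogen, was at 0.31, 0.13 and 0.10 against 1.56, 1.12 and 1.75 FPKM (8.23-fold, adjusted p = 0.0482). Both rose without overlap, Ppp1r3g from a level close to 0.

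G0s2, an inhibitor of the triglyceride lipase ATGL, was the metabolic gene that fell. It was at 31.6, 21.3 and 38.8 FPKM in Sham and 9.72, 12.9 and 8.54 in SAP rats. All SAP values were under the lowest Sham value, a 2.85-fold fall (-1.51 ± 0.31, adjusted p = 0.0369). The 90 bases of its promoter with the STAT match in capitals, 54 bases before the start (RefSeq, GRCr8, chr13:107335949-107336038, minus strand), read:
G0s2: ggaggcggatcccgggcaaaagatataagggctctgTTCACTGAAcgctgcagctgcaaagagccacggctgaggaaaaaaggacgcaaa
Of the genes with adjusted p under 0.05 but a change under 2-fold, Got1, the cytosolic aspartate aminotransferase, was at 23.1, 20.8 and 16.3 against 46.9, 28.9 and 38.2 FPKM (1.97-fold, adjusted p = 0.0191). Smox, the spermine oxidase, was 1.79-fold higher (adjusted p = 0.0424) and Cerk, the ceramide kinase, 1.55-fold higher (adjusted p = 0.0482). Sik3, a salt-inducible kinase, and Tnfrsf21, a death receptor, were 1.43-fold and 1.79-fold higher, and the tetraspanin gene Tspan8 was 1.87-fold lower. Tekt4, also of that set, is given with the cilia.

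Channel and signalling genes also rose. Kcnk5, a background potassium channel, was at 1.44, 1.42 and 0.75 FPKM in Sham and 3.60, 2.48 and 3.07 in SAP rats (2.63-fold, adjusted p = 0.0428), and Kcng4, a modifying subunit of voltage-gated potassium channels, was at 0.94, 0.84 and 0.79 against 2.68, 1.89 and 1.79 (2.58-fold, adjusted p = 0.0439). Pde7b, a cAMP phosphodiesterase, was at 3.49, 2.44 and 1.67 against 5.75, 5.61 and 5.28 FPKM (2.27-fold, adjusted p = 0.0377). Ptprn, a membrane protein of dense-core secretory granules in neuroendocrine cells, was at 0.63, 0.19 and 0.34 against 5.50, 1.53 and 6.18 FPKM. In all 3 SAP rats Ptprn was above the Sham range, though SAP replicate 2 lay far under the other SAP rats, and the rise was 11.6-fold (3.54 ± 0.67, adjusted p = 0.0245). Igsf8, a tetraspanin partner of the immunoglobulin superfamily, was at 12.3, 11.1 and 12.3 against 26.3, 20.3 and 26.7 FPKM (2.12-fold, adjusted p = 0.00661). Mtcl1, a microtubule crosslinking protein, was 2.09-fold higher (adjusted p = 0.0103) and Tmem2, a membrane protein linked to hyaluronan breakdown, 2.19-fold higher (adjusted p = 0.034).

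Another set of called genes, grouped after their values were seen, differed less from the saline-infused rats than from the sham-operated ones. The lincRNA AABR07051555.1 was at 0.33, 1.11 and 1.53 FPKM in Sham, 13.7, 13.2 and 7.77 in Con and 11.4, 27.3 and 68.8 in SAP rats. The Con rats therefore also lay above all Sham rats, and SAP replicate 1 lay within the Con range. SAP over Sham was 37.4-fold (5.23 ± 0.82, adjusted p = 0.00661) and SAP over Con differed by 1.69 on the log2 scale (adjusted p = 0.366). The pseudogene AABR07030823.1 was at 19.1, 23.3 and 23.2 in Sham, 37.6, 40.1 and 39.7 in Con and 30.6, 48.9 and 56.2 in SAP rats (2.13-fold over Sham, adjusted p = 0.0457). The same order was seen for the lincRNA AABR07051716.2, at 0.19, 0.27 and 0.35 FPKM in Sham, 2.08, 5.35 and 1.86 in Con and 20.6, 1.92 and 8.15 in SAP rats (39.4-fold, adjusted p = 0.038), and for RGD1561796, at 1.15, 1.30 and 1.78, then 2.55, 3.40 and 2.84, then 2.38, 3.93 and 3.30 (2.33-fold, adjusted p = 0.0424). Lrrc73 was 2.82-fold higher (adjusted p = 0.0246) and Ly6g6c 2.68-fold higher (adjusted p = 0.0483) in SAP than in Sham rats. With SAP over Con at 0.69 (adjusted p = 0.361) and 0.68 (adjusted p = 0.439) on the log2 scale, both had smaller estimates against saline.

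Genes of motile cilia, the beating structures of airway epithelium, belonged to this set. Stoml3, a stomatin-like protein of cilia, was at 0.04, 0.03 and 0.08 FPKM in Sham (3, 2 and 5 reads), 0.45, 0.48 and 0.14 in Con and 0.18, 1.55 and 1.2 in SAP rats (13, 140 and 52 reads). It rested on few reads in Sham, and the fitted rise was 19.4-fold (4.28 ± 0.92, adjusted p = 0.0457). Dnah1, an axonemal dynein heavy chain, was at 0.71, 1.04 and 0.67 in Sham, 1.50, 2.09 and 1.46 in Con and 1.19, 2.16 and 2.22 in SAP rats (2.38-fold over Sham, adjusted p = 0.0457). Its SAP and Con ranges overlapped almost fully. Of 13 ciliated cell markers, 1 was called (Stoml3), 12 were higher at unadjusted p, and the median was 0.96 against Sham, while Con over Sham had a median of 0.87. Only 3 of the 13 (Stoml3, Zmynd12 and Ccdc96) had groups that did not overlap, against 7.66% wholly above Sham over all genes. The list was chosen with earlier results of these data known, so its counts and median are no independent support. Rsph1, a radial spoke protein, was at 12.6, 17.6 and 11.1 in Sham and 15.8, 33.5 and 27.6 in SAP rats, so SAP replicate 1 lay within the Sham range. Tekt4, a tektin of the cilium and sperm tail, was at 7.65, 9.72 and 8.22 in Sham, 13.4, 15.9 and 15.3 in Con and 10.8, 16.6 and 20.3 in SAP rats (1.91-fold, adjusted p = 0.0482). Muc5b, the gel-forming mucin of the same airways, was at 1.2, 3.71 and 1.13 in Sham, 9.09, 7.98 and 2.33 in Con and 2.60, 8.69 and 9.10 in SAP rats (adjusted p = 0.283). No gene was called between Con_6h and Sham_6h by edgeR's quasi-likelihood test (740 higher and 632 lower at unadjusted p under 0.05), so the Con values are given only beside those of SAP. How much of each lung piece was airway was not recorded and its part in these values was not tested.

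Platelet and red cell lists had positive medians in SAP lungs. The 8 platelet genes tested had a median log2 fold change of 2.05, and none was called. Of them 7 were higher at unadjusted p (7.25% over all genes) and 5 lay wholly above Sham (7.66%). The summed FPKM of the list was 115, 68.4 and 44.4 in Sham, 44.9, 106 and 68.2 in Con and 107, 220 and 335 in SAP rats. Only SAP replicates 2 and 3 were above the Sham range in this sum. Itga2b, the platelet fibrinogen receptor chain, was at 3.51, 2.65 and 1.31 FPKM in Sham and 4.05, 8.57 and 16.1 in SAP rats (1.98 ± 0.48, adjusted p = 0.0798), and Gp9, part of the receptor for von Willebrand factor, at 2.05, 1.55 and 0.73 against 2.90, 6.74 and 9.67 (2.19 ± 0.53, adjusted p = 0.0798). In both genes SAP replicate 3 was highest and Sham replicate 3 lowest. The median of the platelet list stayed between 1.69 and 2.40 when any one library was left out.

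Of 8 red cell genes tested, 7 were higher at unadjusted p (7.25% over all genes) and 6 lay wholly above Sham (7.66%). These genes gave a similar picture, with a median of 2.12 (3.32 without Sham replicate 1). Their summed FPKM was 4962, 1644 and 972.3 in Sham, 2995, 4862 and 9395 in Con and 8155, 10640 and 12660 in SAP rats, so SAP replicate 1 lay below the highest Con rat. Hbb, the beta globin gene, was at 896, 317 and 191 FPKM in Sham and 1819, 2330 and 2273 in SAP rats (2.24 ± 0.84, adjusted p = 0.241). Alas2, the haem synthesis enzyme of red cell precursors, was at 10.2, 2.89 and 2.02 against 14.0, 19.0 and 27.5 (2.04 ± 0.75, adjusted p = 0.225). Rhd, a blood group antigen of the red cell membrane, was the only gene of this kind called. It was at 2.08, 1.02 and 0.69 FPKM in Sham, 1.30, 2.26 and 2.49 in Con and 3.09, 4.69 and 6.84 in SAP rats (3.94-fold, adjusted p = 0.0424), and passed in 2 of the 6 fits without one library. The globin genes have near-identical copies, and reads on more than 1 place were dropped by the authors, so their levels are uncertain. How much blood stayed in each lung after irrigation was not measured, and its part in the platelet and red cell values was not tested. At 24 h the median of the red cell list was -0.22 and that of the platelet list 0.80.

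**Figure D3:**
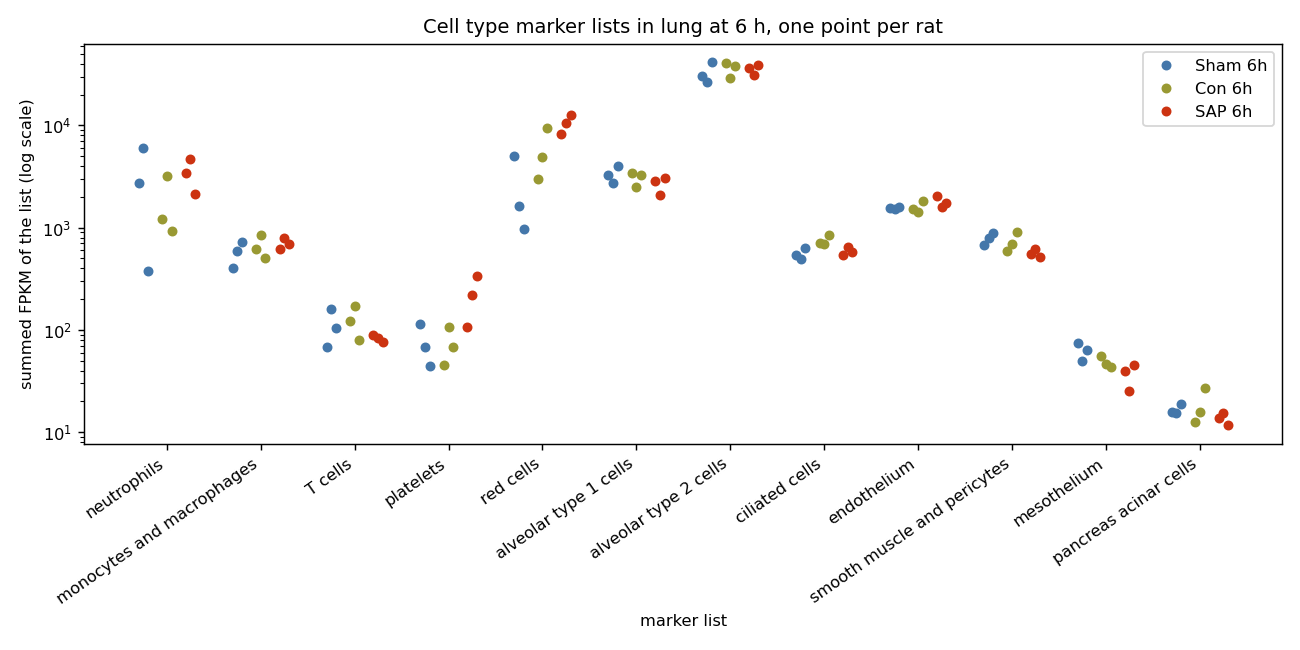
Summed FPKM (y axis, log scale) of 12 cell type marker lists (x axis) in Sham, Con and SAP lungs at 6 h, 1 point per rat. The red cell sums of the 3 SAP rats, 8155 to 12660, lie above those of the 3 Sham rats, while the neutrophil sums of the groups overlap, with Sham rats from 372.6 to 5978.

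In the alveolar epithelium, Aqp5 and Akap5 were lower at unadjusted p among 8 markers of the flat type 1 cells, and none was called. All 8 had negative estimates (median -0.48), and 5 overlapped between groups. Aqp5, the apical water channel of type 1 cells, was at 123, 125 and 376 FPKM in Sham, 212, 109 and 240 in Con and 65.8, 47.8 and 98.6 in SAP rats. The SAP rats were all below the Sham and the Con rats, and the difference was -1.52 ± 0.50 (adjusted p = 0.168). Akap5, a kinase anchoring protein used as a type 1 marker, was at 33.0, 43.6 and 31.4 against 12.0, 14.7 and 19.5 FPKM (-1.18 ± 0.39, adjusted p = 0.169). Other type 1 genes had estimates nearer 0, with Hopx at 1047, 809 and 867 against 911, 728 and 788 and Ager at 1350, 1098 and 1893 against 1437, 825 and 1570, both with overlapping groups. None of the 10 markers of the surfactant-making type 2 cells passed at unadjusted p, and their median was 0.16 (0.37 without Sham replicate 3). Sftpb, the surfactant protein needed for film formation, was at 3970, 3609 and 5315 against 5712, 4075 and 5768 FPKM (0.32 ± 0.24, adjusted p = 0.619).

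Among genes of fluid clearance, Atp1b1, the epithelial sodium channel subunits and Sgk1 did not pass the adjusted test. Atp1b1, a beta subunit of the sodium pump, was at 131, 135 and 110 against 172, 178 and 207 FPKM (0.62 ± 0.30, adjusted p = 0.376). Of the epithelial sodium channel, Scnn1a was at 172, 160 and 192 against 209, 129 and 206 (0.10 ± 0.19, adjusted p = 0.878). Its partner subunits had lower means, Scnn1b with 12.0, 10.7 and 17.3 against 8.70, 6.48 and 10.0 (-0.62 ± 0.29, adjusted p = 0.347) and Scnn1g with 22.8, 18.1 and 31.9 against 9.97, 10.4 and 18.7 (-0.86 ± 0.36, adjusted p = 0.296). Sgk1, a kinase that keeps this channel at the cell surface, was at 40.4, 32.3 and 30.8 against 18.6, 22.7 and 19.4 (-0.73 ± 0.20, adjusted p = 0.118). Sham and SAP rats overlapped for Scnn1a and Scnn1g and were apart for Atp1b1, Scnn1b and Sgk1. Among 16 junction, channel and pump genes, 5 were higher and 3 lower at unadjusted p, with a median of 0.20 (0.02 without SAP replicate 3).

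**Figure D4:**
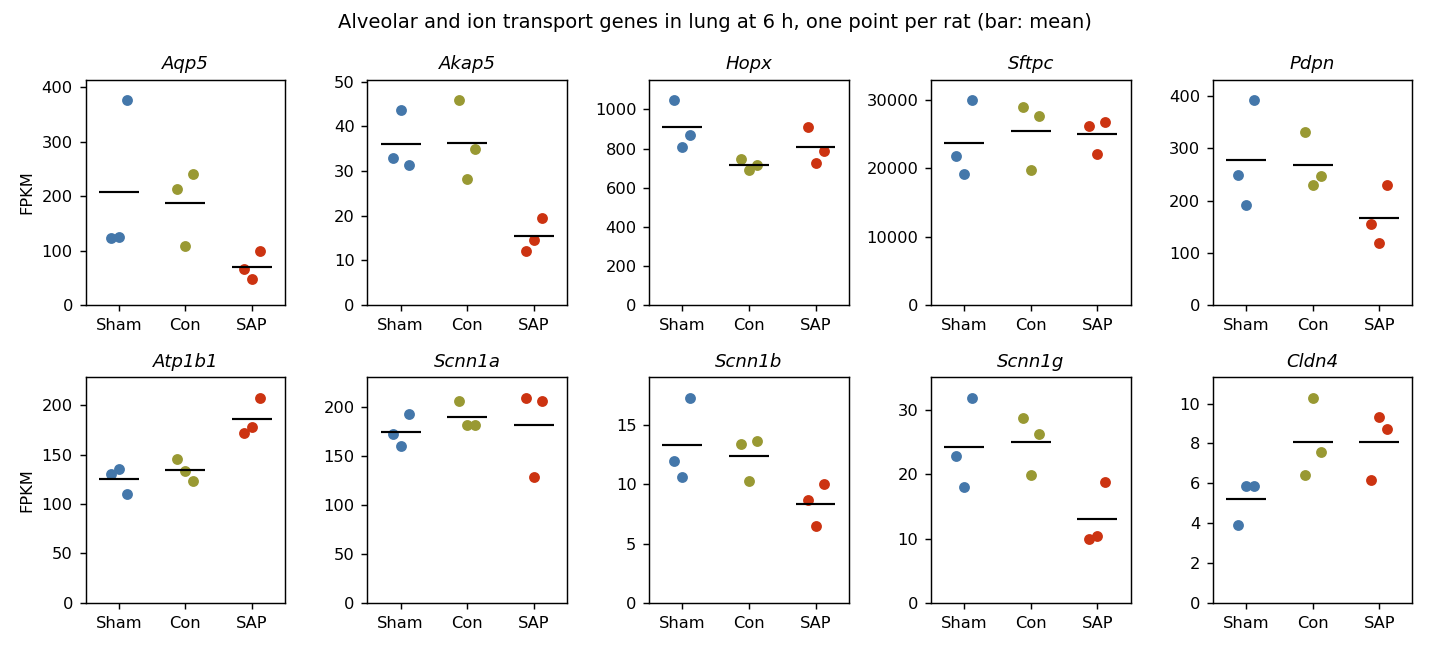
FPKM (y axes, starting at 0) of 10 alveolar and ion transport genes in Sham, Con and SAP lungs at 6 h, 1 point per rat with a bar at the mean. Aqp5 and Akap5 are lower in all 3 SAP rats than in all 3 Sham rats, and Hopx, Sftpc, Pdpn and Scnn1a overlap between groups.

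The classical inflammatory genes did not pass the test at this time. None of 5 neutrophil chemokine genes was called or passed at unadjusted p, and their median was -0.46 (0.29 without Sham replicate 1). Cxcl1, a main neutrophil attractant of the rat, was at 8.87, 8.55 and 5.38 FPKM in Sham and 6.27, 4.55 and 4.16 in SAP rats (adjusted p = 0.771), and Cxcl2 was at 0.73, 1.13 and 0.17 against 0.99, 1.00 and 0.71 (adjusted p = 0.811). The groups overlapped for both. Of 17 other chemokines, none passed at unadjusted p and 4 lay wholly below Sham (7.86% over all genes). Their median was -0.40 (-0.17 without Sham replicate 2). Il6, the cytokine that drives the hepatic acute phase, had at most 1 read in a Sham and 2 reads in a SAP library, and Tnf had 0 and at most 4. Il1b, a product of activated myeloid cells, was at 7.07, 33.3 and 8.37 against 22.7, 24.8 and 14.4 FPKM (adjusted p = 0.861), with Sham replicate 2 the highest of all. Il1a, the alarm cytokine released by injured cells, was the one of 11 cytokine genes tested that was higher at unadjusted p. It was at 8.51, 6.95 and 2.10 FPKM in Sham, 5.06, 2.80 and 4.12 in Con and 27.1, 17.1 and 20.7 in SAP rats. All SAP rats were at least 2 times the highest Sham or Con rat, and the difference was 1.95 ± 0.49 against Sham (adjusted p = 0.0897) and 2.51 against Con (adjusted p = 0.0315).

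Neutrophil markers varied mostly between rats of 1 group. The sum of the neutrophil list was 2713, 5978 and 372.6 FPKM in Sham, 1216, 3205 and 925 in Con and 3438, 4677 and 2153 in SAP rats, so the Sham group held both the highest and the lowest value. Of 16 genes tested, 1 was higher at unadjusted p (Elane), and the median of 0.40 ran from -0.02 without Sham replicate 3 to 1.42 without Sham replicate 2. S100a8, a calcium-binding protein abundant in neutrophils, was at 1284, 2581 and 160 against 1591, 2162 and 880 FPKM (0.27 ± 0.99, adjusted p = 0.949). Il1r2, the decoy receptor for interleukin 1 on neutrophils, was at 15.4, 83.7 and 5.05 against 126, 88.8 and 80.6 (1.58 ± 0.80, adjusted p = 0.413). The Il1r2 groups overlapped in FPKM, as Sham replicate 2 was above SAP replicate 3, but not in CPM. Macrophage markers (15 genes, 1 higher and 1 lower at unadjusted p) had a median of 0.26 (0.02 without Sham replicate 1 and 0.57 without Sham replicate 3), and T cell markers (12 genes, none at unadjusted p) one of -0.42 (-0.02 without Sham replicate 2). Of 16 NF-kB feedback genes, none was called, 1 was higher (Tnfaip3) and 2 lower (Traf1 and Tnip3) at unadjusted p, and the median was 0.08 (0.31 without Sham replicate 2). Traf1, a signalling adaptor, was at 7.61, 8.89 and 7.75 FPKM in Sham and 5.18, 5.75 and 4.48 in SAP rats (-0.60, adjusted p = 0.285), without overlap. Nfkbia, the inhibitor of NF-kB, was at 228, 299 and 241 against 449, 316 and 320 FPKM (0.56 ± 0.34, adjusted p = 0.524) and Tnfaip3 at 1.78, 4.10 and 2.40 against 5.85, 3.56 and 4.31 (adjusted p = 0.221).

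Early response and hormone-sensitive genes had positive medians. All 20 immediate early genes had fold changes above 0 (median 0.53, none called). At unadjusted p 3 were higher (7.25% over all genes), and 5 lay wholly above Sham (7.66%). Nr4a3, an orphan nuclear receptor of this class, was at 0.15, 0.26 and 0.15 against 1.03, 0.46 and 1.09 FPKM (2.28 ± 0.60, adjusted p = 0.106), whereas Fos was at 13, 33.3 and 5.02 against 23.5, 12.5 and 12.7 (adjusted p = 0.999). Of 12 SOCS and STAT3 target genes, 3 were higher at unadjusted p (median 0.58), among them Il4r, an interleukin 4 receptor chain, at 75.1, 96.2 and 58.7 against 159, 107 and 128 FPKM (0.83 ± 0.24, adjusted p = 0.129). Glucocorticoid target genes (17 tested) were higher in 3 and lower in 1 at unadjusted p (median 0.54). Per1, which glucocorticoids and the clock both control, was at 17.0, 20.2 and 23.4 against 40.3, 24.9 and 32.9 (0.75 ± 0.20, adjusted p = 0.106). Fkbp5, a chaperone partner of the glucocorticoid receptor, was at 48.2, 63.6 and 39.8 against 103, 68.4 and 70.4 FPKM (0.73 ± 0.43, adjusted p = 0.496). Per2 and Bhlhe40, clock repressors, were also higher at unadjusted p, giving 3 of 18 clock genes (median 0.39). Each of these groups of 3 was free of overlap except for Fos, and none of the lists had a called member. These medians moved with single libraries: that of the immediate early genes ran from 0.27 without SAP replicate 1 to 0.97 without Sham replicate 2, that of the SOCS and STAT3 targets was 0.37 and that of the glucocorticoid targets 0.31 without Sham replicate 3, and that of the clock genes was 0.25 without SAP replicate 1.

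Metal, acute-phase and coagulation genes differed in size but not in call. Metallothioneins, metal-binding proteins induced by zinc and glucocorticoids, and zinc transporters were higher at unadjusted p in 4 of 8 genes (median 0.49, from 0.21 without SAP replicate 3 to 0.87 without Sham replicate 2). Mt2A was at 153, 352 and 51.2 FPKM in Sham, 87.3, 418 and 60.0 in Con and 1103, 910 and 724 in SAP rats. Every SAP rat was above every other rat of these groups, but the wide spread left 2.37 ± 1.00 (adjusted p = 0.297). Of 17 acute-phase and antimicrobial genes, 3 were higher and 1 lower at unadjusted p, and the median of 0.30 ran from 0.01 without Sham replicate 3 to 1.04 without Sham replicate 2. Among them were Lbp, the endotoxin-binding protein, at 27.9, 48.6 and 34.4 against 60.1, 56.6 and 71.0 (0.81 ± 0.25, adjusted p = 0.138) and Serpina1, the elastase inhibitor, at 14.7, 17.4 and 21.0 against 4.08, 10.4 and 7.22 (-1.26 ± 0.44, adjusted p = 0.202). Coagulation and fibrinolysis genes (13) were higher in 4 and lower in 1 (median 0.54, and 0.28 without Sham replicate 3). Plat, the tissue plasminogen activator of endothelium, was at 135, 158 and 58.1 against 205, 215 and 288 FPKM (1.07 ± 0.42, adjusted p = 0.258), and Plau, the urokinase, was at 4.87, 6.59 and 12.1 against 3.30, 4.09 and 3.97 (-1.01 ± 0.35, adjusted p = 0.195). The directions of these plasminogen activators were opposite, and neither passed the adjusted test.

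The remaining lists held few differences, where 7.25% of all genes were higher and 5.8% lower at unadjusted p. Interferon response genes (19) had none at unadjusted p (median 0.19), heat shock genes (11) 1 higher and 1 lower (0.03), hypoxia and glycolysis genes (16) 3 higher (0.11), NRF2 targets (11) 1 higher (0.20) and unfolded protein genes (16) 2 higher (0.21). The interferon median was -0.09 without SAP replicate 2 and 0.82 without Sham replicate 2, the heat shock median -0.20 without SAP replicate 3 and 0.21 without Sham replicate 2, and without 1 library the other 3 fell as low as 0.05, 0.10 and 0.04. Proliferation genes (18) had a median of -0.37 with 1 higher and 1 lower, but it was 0.11 without Sham replicate 1 and -0.70 without Sham replicate 2, and p53 targets (12) had none at unadjusted p. Matrix and remodelling genes (15) were higher in 3, led by the proteases Adamts1, at 21.6, 16.1 and 13.7 against 41.8, 30.6 and 45.5 FPKM (1.25 ± 0.34, adjusted p = 0.114), and Adamts9, at 5.05, 3.40 and 2.21 against 7.78, 5.46 and 8.93 (1.11 ± 0.33, adjusted p = 0.133). Prostaglandin and leukotriene genes (15) were higher in 1, Ptgs2, and lower in 2, of which Hpgd, the prostaglandin-degrading enzyme, was at 34.9, 28.7 and 30.5 against 12.6, 19.8 and 11 FPKM (-1.07 ± 0.38, adjusted p = 0.205). The mesothelial markers Upk3b and Upk1b, of the lung's outer lining, were lower at unadjusted p, and their list of 5 had a median of -0.92, with Con over Sham at -0.73. Among 8 MHC class II genes, RT1-Ba was at 26.0, 35.4 and 77.2 FPKM in Sham and 110, 379 and 289 in SAP rats (2.51 ± 0.67, adjusted p = 0.108) and RT1-Bb at 19.1, 21.0 and 45.1 against 97.2, 83.4 and 120 (1.86 ± 0.72, adjusted p = 0.258). By contrast Cd74, the invariant chain of the same complex, was at 1288, 1243 and 2175 against 1808, 1360 and 1685 FPKM, with overlapping groups. RT1 genes differ between rats by haplotype and have close copies, so their levels from uniquely mapped reads are uncertain. Of 4 pancreatic acinar genes with enough reads, 1 was lower at unadjusted p (Ctrb1), and the summed list stayed between 11.6 and 18.7 FPKM in the 6 lungs.

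**Figure D5:**
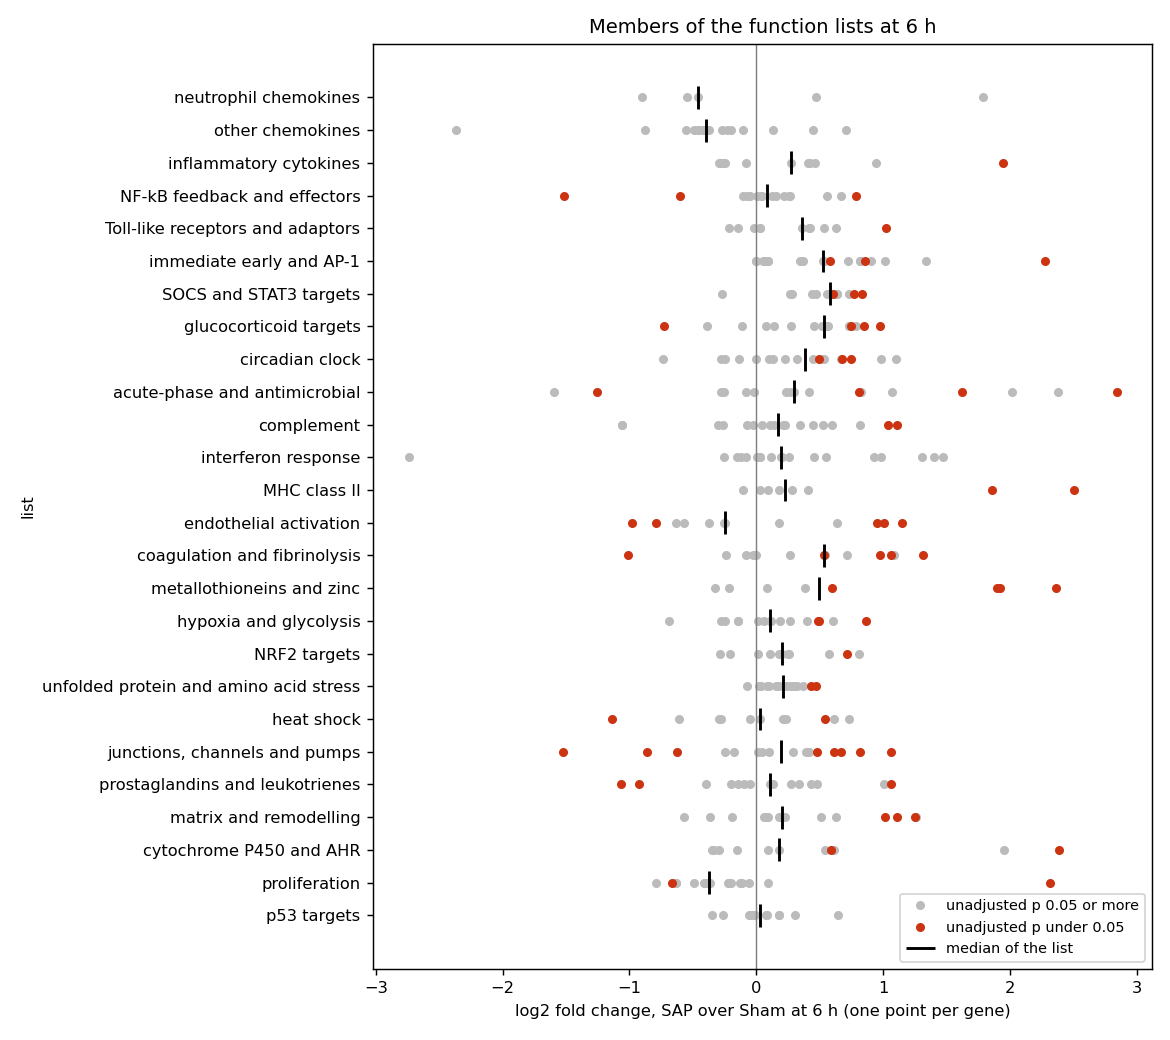
Log2 fold change of SAP over Sham at 6 h (x axis) for the members of lists by function (y axis), 1 point per gene, red where unadjusted p is under 0.05, with a black bar at the list's median. All 20 immediate early genes lie above 0, and the neutrophil chemokines have a median of -0.46.

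Saline infusion into the duct gave another control for the same SAP rats. The paper states that this infusion caused mild pancreatitis and for that reason took Sham as its control. SAP_6h against Con_6h had 26 called genes, 18 higher and 8 lower, but shares its 3 SAP libraries with the comparison above and is no separate evidence. Log2 fold changes against Sham and against Con stood side by side at 1.23 and 1.16 for Wnt4, 1.15 and 1.09 for Nos3, 2.27 and 2.45 for Apln, -1.21 and -1.58 for Kdr, -1.31 and -1.57 for Pdgfb and 2.32 and 2.43 for Slc25a15. For the cilia gene Dnah1 they were 1.25 and 0.21, and for RGD1561796 1.22 and 0.20. Thus the vascular and transport genes given here, grouped after their values were seen, had like estimates against either control. The cilia gene and RGD1561796 had smaller ones against saline. With the mean of Sham and Con as the control, 66 genes were called, 29 of the 35 among them.

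The genes called at 6 h were then read in other rats, which did not enter the 6 h difference itself but were in the model that gave its spread. The mapping summary also lists a lower share of uniquely mapped reads in every SAP_24h than in every Sham_24h library, and in every Emo_6h, Dex_6h and SAP_6h than in every Con_6h library, so this difference runs along each of these comparisons and cannot be told apart from the taurocholate in them either. At 24 h, 30 of the 35 genes had a fold change of the same sign and 22 passed at unadjusted p with that sign, against 28.4% of all genes at unadjusted p in either direction. Wnt4 was at 7.41, 5.75 and 7.27 FPKM in Sham_24h and 12.7, 19.2 and 20.2 in SAP_24h rats (1.47, adjusted p = 0.000208). Ptprn was at 0.24, 0.16 and 0.18 against 4.70, 6.04 and 8.07 (5.13, adjusted p = 0.000405) and Ppp1r3g at 0.03, 0.14 and 0.08 against 2.80, 1.08 and 0.91 (4.36, adjusted p = 0.0011). All 3 rose again, with groups apart. Apln was at 15.3, 6.10 and 5.2 against 9.96, 10.5 and 15.6 at 24 h (0.58, adjusted p = 0.403). Its effect at 24 h minus that at 6 h was -1.69 ± 0.61, which did not pass the adjusted test (adjusted p = 0.252). Kdr was at 51.2, 39.4 and 35.6 FPKM in Sham_24h and 14.7, 27.0 and 23.7 in SAP_24h rats (-0.83, adjusted p = 0.0222).

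The later time had many more calls, 796 (316 higher and 480 lower), in rats of both groups that had also received saline and vehicle at 12 h. Medians of several lists were larger there: 1.71 for neutrophils against 0.40 at 6 h, 2.15 for neutrophil chemokines against -0.46, 1.41 for SOCS and STAT3 targets against 0.58, 1.93 for acute-phase genes against 0.30 and 1.39 for heat shock genes against 0.03. The 6 h medians moved with single libraries as given above, that of the acute-phase genes to 1.04 without Sham replicate 2. A direct test of the difference between the times found 5 genes, and none of them was in these lists. Stoml3 was 1 of the 5, with 0.55, 0.58 and 0.51 FPKM in Sham_24h and 0.12, 0.05 and 0.05 in SAP_24h rats, the reverse of its order at 6 h.

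In the treated pancreatitis rats, read against Con_6h, the calls were as follows. In Emo_6h rats 29 of the 35 genes had the same sign and 24 passed at unadjusted p with it, against 14.1% of all genes in either direction. In Dex_6h rats 33 had the same sign and 24 passed with it, against 20.4% of all genes. Wnt4 was at 27.1, 20.9 and 22.9 FPKM in Emo_6h and 24.5, 28.4 and 24.9 in Dex_6h rats, all above the 3 Con rats (adjusted p = 0.00908 and 6.09e-05). Apln was at 81.3, 38.4 and 75.9 in Emo_6h and 83.4, 113 and 53.7 in Dex_6h rats (adjusted p = 0.0367 and 0.000699). Kdr was at 27.7, 31.4 and 22.5 in Emo_6h (-0.84, adjusted p = 0.115) and 14.1, 11.1 and 15.9 in Dex_6h rats (-1.83, adjusted p = 5.19e-05). All of these rats received taurocholate and then a drug, and the effects of both cannot be told apart in the comparison with Con_6h.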

How the data were processed

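Lung RNA from 30 rats was sequenced as directional poly(A) libraries. Per the study's methods, the authors trimmed the reads, mapped them to the rat Ensembl genome (rat_ensembl_v6) with TopHat2 allowing 2 mismatches, dropped reads that mapped to more than 1 place, and deposited raw read counts and FPKM values per gene. The program that counted the reads, and whether it used the strand, is not given in the sources used here. FPKM served for levels and the deposited counts for tests. The test was edgeR's quasi-likelihood test (edgeR 4.0.16, limma 3.58.1, R 4.3.3) with TMM scaling on the 15934 of 22914 genes that passed filterByExpr (minimum count 10, total 15). One model held all 10 groups (20 residual degrees of freedom), with Benjamini-Hochberg adjustment over all genes tested, and every adjusted p comes from it. ± is the standard error of the log2 fold change (n = 3 rats per group). The labels do not say whether rats shared a litter or a day, so p-values measure the spread between these rats.

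Genes named are all 35 called genes, genes with adjusted p under 0.05 alone (1 is not reported here), and members of 18 cell type and 31 function lists. The members and lists were chosen with earlier results of these data known, so their counts and medians are no independent support. The test was run on simulated counts with known changes beforehand. Promoter sequences come from RefSeq tables on GRCr8 (25 of 35 called genes matched by symbol, 250 bases before the start searched) and were not joined to the files' older build. Alternatives were RLE scaling, no or stricter count filters, DESeq2 1.42.0, limma on log2(FPKM + 0.1) and log2(FPKM + 1), a replicate block, the compared groups alone, other call rules, the mean of both controls, and leaving out each library. The comparisons of Emo_6h and Dex_6h with Con_6h were added after the data were seen. Figures were drawn with matplotlib 3.10.9.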

Additional observations from a re-analysis of the deposited data

Results flagged for a closer look

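The fold change of SAP over Sham at 24 h differed from that at 6 h in 5 genes. This was a direct test of the difference in edgeR's quasi-likelihood fit, each gene with an adjusted p of 0.0471. The difference, given as the 24 h minus the 6 h log2 fold change, was -7.04 for Stoml3, -2.98 for Zmynd12 and -2.48 for Ccdc96, which are ciliated cell genes. It was -3.57 for Adh6, an alcohol dehydrogenase, and 1.48 for AABR07054490.1. Zmynd12 was at 0.93, 1.23 and 2.17 FPKM in Sham_6h and 2.97, 5.81 and 3.58 in SAP_6h rats, but at 4.67, 3.48 and 2.24 in Sham_24h and 0.85, 1.24 and 1.46 in SAP_24h rats. Ccdc96 went from 2.34, 1.75 and 2.23 against 2.49, 6.04 and 5.72 at 6 h to 4.70, 4.35 and 4.84 against 1.54, 1.86 and 1.86 at 24 h. In these cilia genes, and in Stoml3, the Sham_24h rats were on average above the Sham_6h rats and the SAP_24h rats below the SAP_6h rats. The Con_6h rats were on average above the Sham_6h rats too, by 2.78 for Stoml3 and 0.87 for Ccdc96 on the log2 scale. SAP_6h over Con_6h was 1.50 (adjusted p = 0.501) and 0.34 (adjusted p = 0.778). The 6 h part in these genes is therefore not shown to be particular to taurocholate. Adh6 was at 9.37, 9.54 and 16 in Sham_6h against 16.4, 23.7 and 16.9 in SAP_6h rats, and at 8.48, 20.6 and 11.8 in Sham_24h against 0.99, 2.14 and 2.23 in SAP_24h rats. AABR07054490.1 was at 7.56, 8.42 and 6.49 against 6.03, 6.09 and 6.25 at 6 h and at 4.45, 4.55 and 5.72 against 13.8, 7.86 and 9.96 at 24 h. None of these differences was called in fits without Sham_6h replicate 1 or 2, SAP_6h replicate 2 or 3, Sham_24h replicate 2 or SAP_24h replicate 3 (1520 to 2128 genes at unadjusted p under 0.05 in these 6 fits, and 146 called by DESeq2 with all libraries). No explanation was tested.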

How the results depend on the processing

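The count for SAP_6h against Sham_6h (35) was 35 with RLE scaling and 25 without a count filter. It became 191 with DESeq2, 0 with the compared groups alone (1644 at unadjusted p), 623 at unadjusted p with 2-fold, 66 against the mean of both controls, and 4 to 60 without one library. For SAP_6h against Con_6h (26) it was 95 with DESeq2, 423 at unadjusted p with 2-fold, and 0 to 32 without one library, the 0 being without SAP_6h replicate 1 (1591 at unadjusted p) or Con_6h replicate 3 (1003). For SAP_24h against Sham_24h (796) it was 3 with the compared groups alone, 1329 at unadjusted p with 2-fold, 1979 at any fold, and 402 to 840 without one library. The difference between the times (5 genes) gave 146 with DESeq2, 0 alone (1519 at unadjusted p), 999 at unadjusted p with 2-fold, and 0 to 16 without one library. The cause of these changes was not tested.

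Whether replicate numbers pair the rats cannot be settled from the counts. Deviations of same-numbered Sham_6h and SAP_6h libraries correlated at 0.0792, 0.208 and -0.0186 across genes. For libraries of unlike numbers the correlations ran from -0.211 to 0.144. With a replicate block 28 genes were called, 26 of the 35 among them, and 9 for the difference between the times. No named gene past an unadjusted p under 0.05 in either fit changed direction under an alternative. On log2(FPKM + 0.1) in limma 27 of the 35 were called, and 15 with a pseudocount of 1. Stoml3 had 2 to 5 reads and Ppp1r3g 3 to 11 in the Sham libraries, so their fold changes rest on few reads.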
